A study of Homo sapiens with 56 samples.

Results

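MYC and 45 genes of ribosome production were followed across 4 mantle cell lymphoma cell lines. The 46 genes were taken by symbol from a table of 21595 named genes. All 46 were present and passed the filter on low values (at least 1 CPM in 2 or more of 48 units), as did 16615 genes in all. They are MYC, its metabolic target ODC1, 5 genes of RNA polymerase I and its initiation, 4 nucleolar scaffold proteins and chaperones, 3 core proteins of the box C/D particle, 3 of the box H/ACA particle, 14 genes of the small subunit processome and 40S maturation, 12 of 60S maturation and 3 other nucleolar factors.

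Libraries from poly-A selected RNA numbered 15 for MINO-P, 13 for MINO-VR, 15 for JEKO-1 and 13 for Z138, or 56 in all. These are lines of mantle cell lymphoma, a B cell malignancy marked by cyclin D1, and the labels do not explain the suffixes of MINO-P and MINO-VR. The study tested YM155, which suppresses BIRC5 (survivin), and S63845, an MCL-1 inhibitor, alone and beside a proteasome inhibitor and a BTK inhibitor, as a way past drug resistance. The labels give neither dose nor duration.

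The treatments carry 12 codes, spelled here as in the labels. CON, taken as untreated, had 5 libraries (2 in Z138 and 1 in each other line). BTZ, read here as bortezomib, a proteasome inhibitor, had 6, and IBR, read here as ibrutinib, a BTK inhibitor, had 11. CLF, which the labels do not expand, had 6, YM155 had 4 and S63845 had 6. The combinations were IBR_CLF with 8 libraries, BTZ_CLF with 4, BTZ_YM155 with 2, IBR_YM155 with 2, IBR_S63845 with 1 and BTZ_S63845 with 1. Nothing in the labels says that replicates came from separate cultures, so p-values measure only the spread between these libraries, which may be technical.

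Ribosome production starts in the nucleolus, where RNA polymerase I, with UBTF and RRN3, transcribes the precursor of the ribosomal RNAs. The precursor is methylated by box C/D particles, pseudouridylated by box H/ACA particles, cleaved in the small subunit processome, and built into the 40S and 60S subunits with the help of helicases and assembly factors. MYC binds E-box DNA with its partner MAX and is known as a broad activator of these genes and of ODC1, the first enzyme of polyamine synthesis. MYC is known to respond to B cell receptor signalling, and high MYC marks aggressive mantle cell lymphoma.

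Values are nuclear CPM, CPM recomputed after leaving out 15 mitochondrially encoded genes, because these held 1.91% to 80.5% of a library (median 6.69%). Depth recovered from the table was 5.52 to 21.6 M reads per library. MS4A1, CD79A, CD79B, PAX5, CCND1 and SOX11, which mark B cells and mantle cell lymphoma, were above 1 CPM in all 56 libraries, and the 9 such markers together summed to 920 to 6527 CPM. The 14 measured markers of other cell types summed to 10.6 to 109 CPM. CD3E reached 1 CPM in 0 libraries, CD3D in 1 and CSF1R in 2. However, EPCAM reached 1 CPM in 53 libraries, PECAM1 in 48, COL1A1 in 46 and CD8A in 29. In bulk RNA, fewer cells of a type and less RNA per cell cannot be told apart.

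Some libraries stood apart. Both JEKO-1 BTZ_CLF libraries, both JEKO-1 IBR_CLF libraries and JEKO-1 BTZ replicates 1 and 2 had mitochondrial shares over 50%. JEKO-1 BTZ replicate 3 went against the other JEKO-1 BTZ libraries: HSPA1A, a heat shock gene, was at 10189 and 10013 CPM in replicates 1 and 2 and at 141 CPM in replicate 3, against 19.9 CPM in JEKO-1 CON. HSPA1B, its close copy, was at 8464 and 9053 CPM in replicates 1 and 2, at 172 CPM in replicate 3 and at 655 CPM in CON, so replicate 3 was above CON for one and below it for the other. Whether replicate 3 is mislabelled or had another dose or time cannot be told apart. Replicate 3 also held the lowest value of 14 members, among them BOP1, listed at 0, NOP16 at 0.812 CPM and GRWD1 at 2.36 CPM. The same library held the highest value of DDX21 (1108 CPM), NIP7 (150.6 CPM) and WDR12 (149.7 CPM), so it was not low throughout. All groups share one estimate of the spread, so these libraries enter the test of every comparison, and counts are given with and without them. In Z138, 5 treatments have a pair of libraries, of which replicate 2 has a name ending in a capital A. Replicate 2 was higher than replicate 1 in all 5 pairs for UBTF (by 0.40 to 2.64, log2), PES1 and PPAN and lower for NPM1 (-1.87 to -0.47), and 24.4% of all genes shifted one way in all 5. The pairs were kept as separate units, and calls are also given with a term for this set and with the pairs averaged. Of the 46 members, 22 overlap another entry of the table (MYC overlaps CASC11), and the library kit does not mark strand, so reads of overlapping genes cannot be told apart.

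Across libraries the nucleolar genes were low in most IBR libraries. With each gene centred on its median over libraries, the median of the 44 members other than MYC and ODC1 was 0.19 to 0.78 (log2) in the 5 CON libraries and 0.13 to 0.63 in the 6 S63845 libraries, all above 0. In the 11 IBR libraries it ran from -1.20 to 0.46, and JEKO-1 IBR replicate 3 was the one above 0. In the 6 BTZ libraries it ran from -0.61 in Z138 to 0.43 in MINO-VR.

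**Figure D1:**
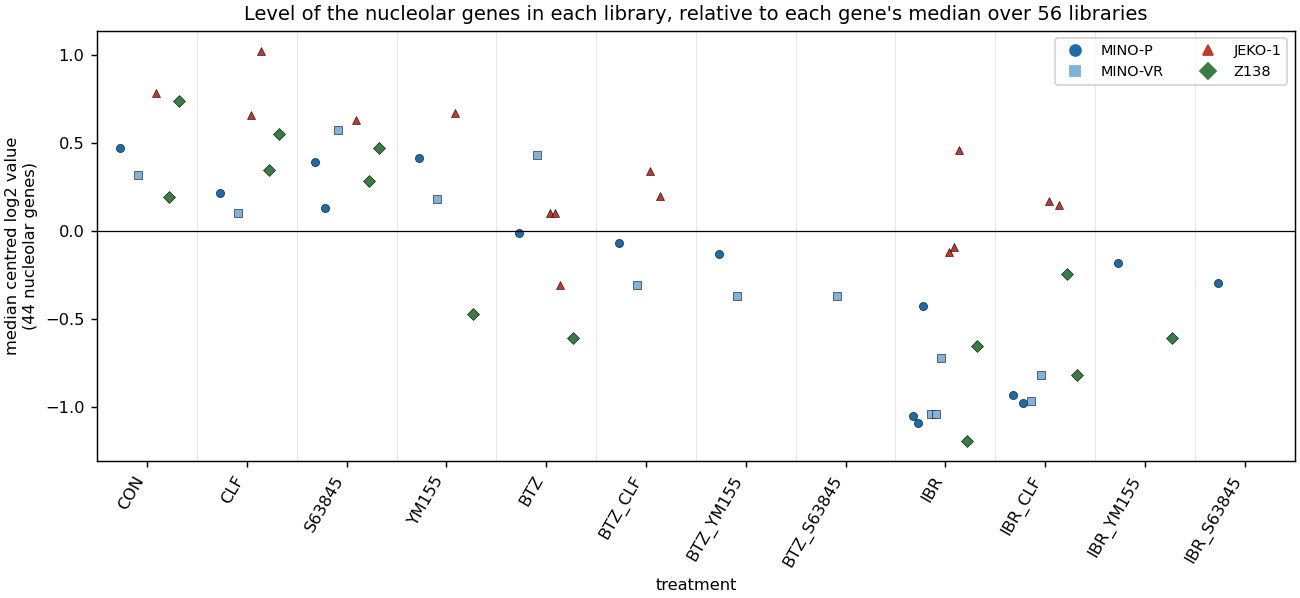
Median centred log2 value of the 44 nucleolar genes (y axis) in each of 56 libraries, by treatment (x axis) and cell line (colour and shape); 0 is each gene's median over libraries. CON libraries lie between 0.19 and 0.78 and IBR libraries between -1.20 and 0.46.

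IBR was compared with S63845 within all 4 lines. All 46 members had a negative difference, with a median of -1.07 (log2) against -0.03 for all genes, and 22 fell at an adjusted p under 0.05 (limma) while 0 rose. Over all genes tested, 3.32% fell by this rule. With a term for the Z138 set the same 22 were called, but with the Z138 pairs averaged, which leaves 6 of the 11 residual degrees of freedom, 0 members and 0.0% of all genes passed in limma (29 members at an unadjusted p under 0.05). These calls therefore rest on counting the Z138 pairs as separate units. Of the 9 B cell and mantle cell markers, 1 fell, with a median over the 9 of -1.32, and mitochondrial shares were 5.58% to 20.9% under IBR and 3.91% to 17.5% under S63845; their part in the result was not tested.

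LYAR (ENSG00000145220, chr4:4267701-4290155 in hg38), a nucleolar factor of pre-rRNA processing, showed the clearest separation. In MINO-P it was at 41.4 and 37.9 CPM under S63845 and at 15.4, 13.4 and 15.9 CPM under IBR, and in MINO-VR at 58.3 CPM and at 16.1, 10.7 and 17.6 CPM. In JEKO-1 it was at 58.8 CPM under S63845 and at 25.0, 30.4 and 18.2 CPM under IBR, and in Z138 at 51.5 and 45.8 CPM and at 14.8 and 12.7 CPM. Every IBR library was below every S63845 library, whatever the line. LYAR fell by 1.58 ± 0.22 (log2, SE), to 0.335 of the S63845 level (adjusted p 0.00547), and it passed in 24 of 25 alternatives, the exception being the averaged Z138 pairs (adjusted p 0.0983).

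UTP20 (ENSG00000120800, chr12:101280105-101386619 in hg38), a large scaffold of the small subunit processome, had the largest called fall. It was at 94.0 and 65.4 CPM under S63845 and at 11.4, 9.63 and 23.7 CPM under IBR in MINO-P, and at 81.9 CPM and at 9.66, 13.7 and 35.8 CPM in MINO-VR. It was at 85.3 CPM and at 21.2, 19.9 and 78.0 CPM in JEKO-1, and at 60.7 and 84.8 CPM and at 17.9 and 44.04 CPM in Z138. The groups did not overlap in any line, although JEKO-1 IBR replicate 3 lay close to the S63845 library. UTP20 fell by 1.64 ± 0.37 (adjusted p 0.0261), and missed the threshold in 9 of 25 alternatives.

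Of 5 RNA polymerase I genes, POLR1B, the second subunit, fell by 1.11 ± 0.23 (adjusted p 0.0177), while the initiation factors RRN3 and UBTF had differences of -0.37 (adjusted p 0.365) and -0.04 (adjusted p 0.976). Of the 4 scaffold proteins and chaperones 3 fell: NOLC1, a chaperone of snoRNPs, by 1.41 ± 0.28 (adjusted p 0.0162), GNL3 (nucleostemin) by 1.08 and NCL (nucleolin) by 1.01. NPM1 had a difference of -0.34 (adjusted p 0.644). It has 20 named pseudogenes in the table, so its reads may be split, and the same holds for DDX18 with 5, RRN3 with 3, NHP2 with 2, and NCL, NOP56, PES1 and DDX10 with 1 each.

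In the guide particles, NOP56, a core protein of box C/D, fell by 1.39 ± 0.27 (adjusted p 0.0147), and DKC1, the pseudouridine synthase, and NHP2 of box H/ACA fell by 1.29 and 1.10. FBL (fibrillarin), the methyltransferase of box C/D, had a difference of -0.37 (adjusted p 0.488). Of 14 small subunit genes 6 fell (UTP20, WDR43, WDR3, UTP15, TSR1 and NOP14). Of 12 genes of 60S maturation 6 fell (MRTO4, BRIX1, NIP7, WDR12, RRP1B and DDX18). DDX21, a helicase that acts in rRNA transcription and processing, fell by 1.43 ± 0.26 (adjusted p 0.0106), and ODC1 fell by 1.25 ± 0.24 (adjusted p 0.0139). NOP16, a 60S factor, and RRP12, of 40S maturation and export, had the most negative differences, -1.72 and -1.69, without passing (adjusted p 0.0672 and 0.0714).

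By line, 44 of 46 members were lower under IBR in MINO-P (median -1.09), 45 in MINO-VR (median -1.49), 36 in JEKO-1 (median -0.49) and 46 in Z138 (median -1.28). For 23 of the 46 members, every IBR unit lay below every S63845 unit in each of the 4 lines, which held for 5.13% of all genes tested. The 22 calls became 11 without MINO-P, MINO-VR or JEKO-1 IBR replicates 1 and 2 (1.79%, 1.54% and 2.17% of all genes called in either direction). They also became 11 without Z138 IBR replicate 1 (2.06%) or Z138 S63845 replicate 1 (1.31%) or 2 (1.51%). Without MINO-P S63845 replicate 1 they became 12 (2.64%), and without MINO-VR S63845 8 (1.11%). They became 39 without JEKO-1 BTZ replicate 3 (15.5% of all genes called in either direction) or without JEKO-1 BTZ replicates 1 and 2 (15.4%).

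**Figure D2:**
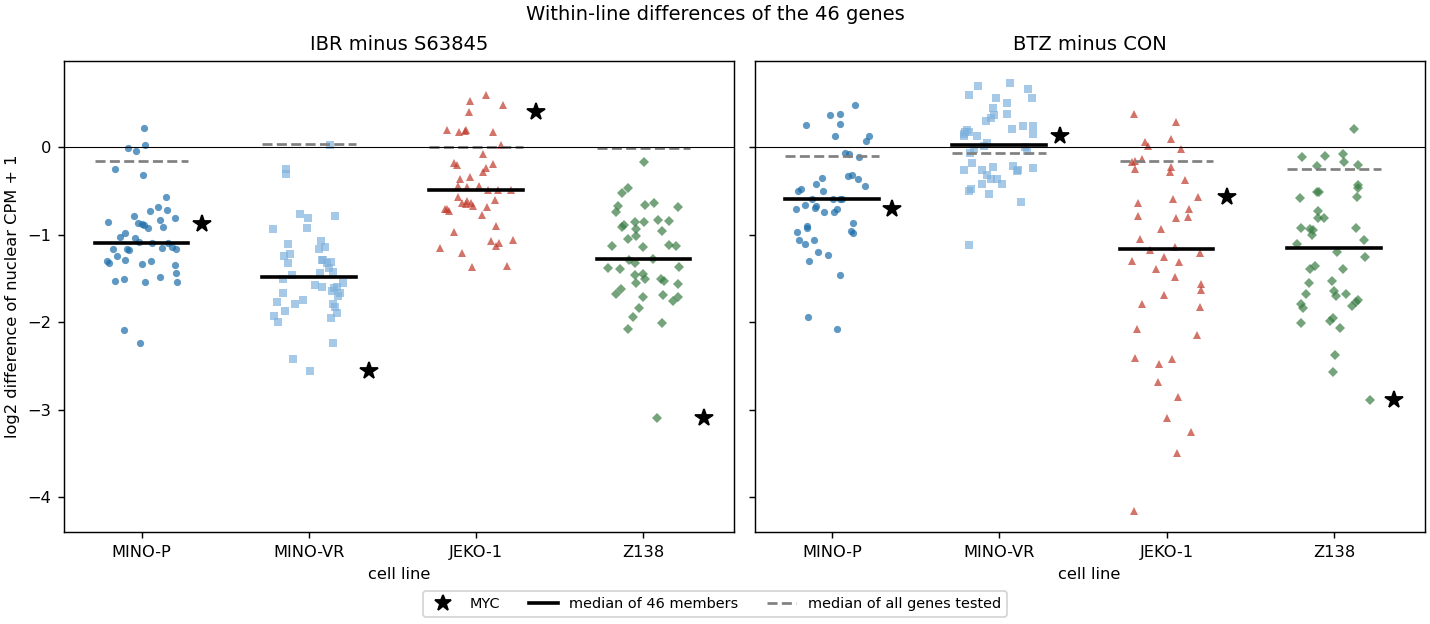
Within-line log2 differences of the 46 genes (y axis) by cell line (x axis) for IBR minus S63845 and for BTZ minus CON; each small symbol is a gene, the solid line their median, the dashed line the median of all genes tested, and the star repeats MYC. The medians for IBR are -1.09, -1.49, -0.49 and -1.28, and MYC is above 0 in JEKO-1.

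MYC (ENSG00000136997, chr8:127735434-127742952 in hg38) split the lines. In Z138 it was at 793 and 642 CPM under S63845 and at 72.1 and 94.5 CPM under IBR, and in MINO-VR at 694 CPM and at 80.1, 94.6 and 157 CPM. In MINO-P it was at 436 and 551 CPM and at 112, 122 and 607 CPM, with IBR replicate 3 the highest of all 5. In JEKO-1 it was at 646 CPM under S63845 and at 891, 862 and 830.4 CPM under IBR. MYC was thus lower without overlap in Z138 and MINO-VR, overlapping in MINO-P and higher in JEKO-1. The mean difference was -1.53 ± 0.52 (adjusted p 0.107), so MYC did not pass; it passed in 4 of 25 alternatives, namely with every library as its own unit, without libraries over 50% mitochondrial share, and without JEKO-1 BTZ replicate 3 or replicates 1 and 2.

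**Figure D3:**
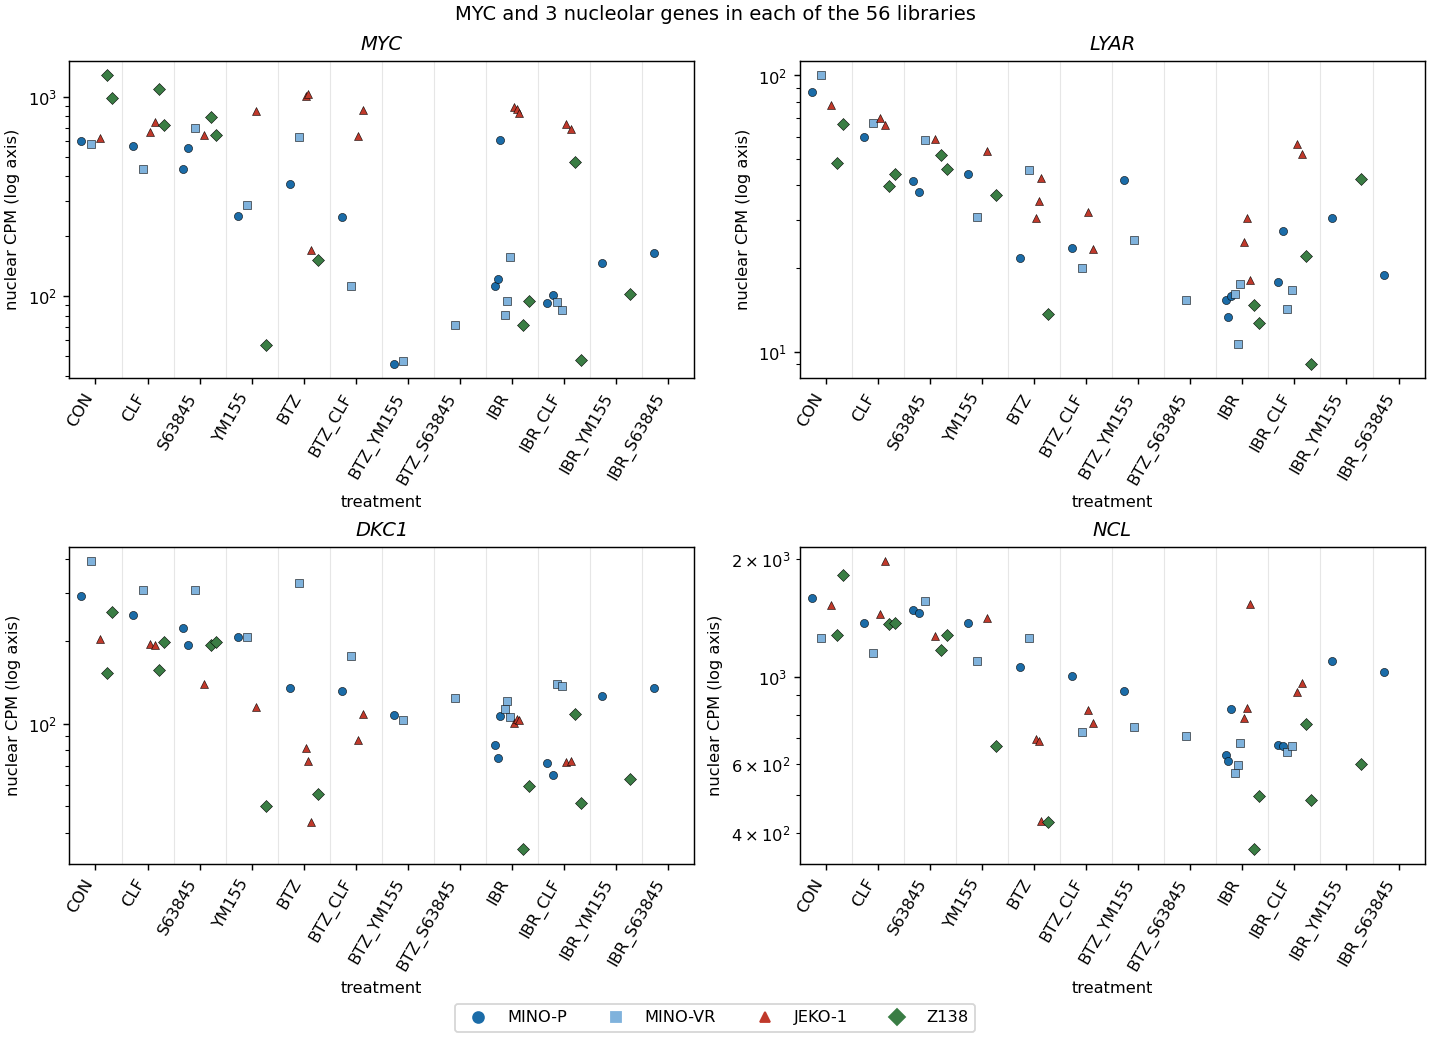
Nuclear CPM on a log axis (y axis) of MYC, LYAR, DKC1 and NCL in each of 56 libraries, by treatment (x axis) and cell line (colour and shape). In the JEKO-1 IBR libraries MYC is at 830.4 to 891 CPM and LYAR at 18.2 to 30.4 CPM.

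Because MYC binds E-boxes, the promoters of the members were searched for the canonical form, CACGTG, which is its own reverse complement, so a match is on both strands. RefSeq windows (GRCh38.p14) from 250 bases before to 50 after a gene's start were matched for 39 of the 46 members, and not for MYC, NOLC1, NOP58, BOP1, DDX18, RRP12 and RRP1B. The motif was in a window of 17 of the 39 (43.6%), against 8.8% of the 27305 genes that have a RefSeq window. By window, it was in 34.69% of the members' 49 windows and in 7.26% of all 35116. Among 58 other ribosome biogenesis factors it was in 22 (37.9%).

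The 8 members that hold the motif and fell under IBR against S63845 are shown with 12 bases on either side, 5′ to 3′ on the gene's strand, with the E-box in capitals, to show how the shared letters sit in otherwise different sequence. LYAR is from chr4:4290068-4290097 (minus strand), UTP20 from chr12:101280083-101280112 (plus) and DDX21 from chr10:68956604-68956633 (plus). WDR43 is from chr2:28894658-28894687 (plus), MRTO4 from chr1:19251807-19251836 (plus) and ODC1 from chr2:10448024-10448053 (minus). GNL3 is from chr3:52686026-52686055 (plus) and NOP14 from chr4:2963374-2963403 (minus).
LYAR: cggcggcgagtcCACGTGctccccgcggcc
UTP20: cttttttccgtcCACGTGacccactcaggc
DDX21: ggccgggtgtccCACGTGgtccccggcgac
WDR43: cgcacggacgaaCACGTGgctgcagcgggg
MRTO4: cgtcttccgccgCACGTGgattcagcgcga
ODC1: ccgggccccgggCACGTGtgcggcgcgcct
GNL3: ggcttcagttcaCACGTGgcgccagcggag
NOP14: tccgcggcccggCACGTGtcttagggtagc

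Distances are from the start of the window that holds the motif. LYAR, DDX21, ODC1 and GNL3 have a second window, from another start, without it, so the match lies inside the transcribed region when counted from the outer start of LYAR, DDX21, ODC1 or GNL3. The E-box began 64 bases before the start in LYAR, 31 in DDX21, 29 in ODC1, whose window held 2 copies, and 10 in UTP20. It began at base 4 in WDR43, 7 in GNL3, 15 in MRTO4 and 16 in NOP14, counting the start as base 1. The median difference between IBR and S63845 was -1.11 for the 17 members with the motif, of which 8 were called, and -1.05 for the 22 without it, of which 11 were called. A match describes letters in a window and does not show binding.

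Against CON, IBR was compared within JEKO-1 and Z138, whose CON and IBR libraries belong to one library series. All 46 members had a negative difference, with a median of -1.08 against 0.01 for all genes. LYAR alone passed, falling by 1.87 ± 0.31 (adjusted p 0.0472), where 0.0301% of all genes fell, and 29 members had an unadjusted p under 0.05. Of the B cell and mantle cell markers 0 of 9 fell, 8 had a negative difference and the median was -0.95, and mitochondrial shares were 5.58% to 20.9% under IBR and 1.91% to 3.92% in CON; their part in the result was not tested. For 33 members (71.7%) every IBR unit was below every CON unit in both lines, which held for 12.1% of all genes tested. IBR is also a side of the comparison with S63845, so these comparisons share libraries.

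LYAR was at 78.0 CPM in JEKO-1 CON and at 25.0, 30.4 and 18.2 CPM under IBR, and at 48.1 and 66.9 CPM in Z138 CON and at 14.8 and 12.7 CPM under IBR. The groups did not overlap in either line. ODC1 had a difference of -1.31 ± 0.34 (adjusted p 0.119), and RRN3 and UBTF were the members nearest to 0 (-0.17 and -0.25). The number called was 0 when JEKO-1 CON, JEKO-1 IBR replicates 1 and 2 or JEKO-1 IBR replicate 3 was left out. It was also 0 when any CON or IBR library of Z138 was left out. With the Z138 pairs averaged it was 0 (18 at an unadjusted p under 0.05). It was 19 without JEKO-1 BTZ replicate 3 (4.04% of all genes called in either direction) or without JEKO-1 BTZ replicates 1 and 2 (4.05%). Under these alternatives 45 or 46 of the members stayed negative.

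In the MINO lines the CON libraries belong to another library series than the IBR libraries, so series and treatment cannot be told apart. There, 45 members were lower under IBR in MINO-P (median -1.18) and 44 in MINO-VR (median -1.22).

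MYC went opposite ways under IBR in JEKO-1 and Z138. In JEKO-1 it was at 619 CPM in CON and at 891, 862 and 830.4 CPM under IBR, a difference of 0.46, and in Z138 it was at 1277 and 988 CPM in CON and at 72.1 and 94.5 CPM under IBR, a difference of -3.75. CON and IBR did not overlap in either line. The mean over both lines was -1.64 ± 0.74 (adjusted p 0.348). In JEKO-1, 43 of 46 members were lower under IBR than in CON (median -0.74) although MYC was higher, and in Z138 all 46 were lower (median -1.37).

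The difference between the lines in the IBR effect was 4.21 ± 1.47 for MYC and 0.19 ± 0.68 for ODC1, both with an adjusted p of 1.0 (unadjusted p 0.0118 for MYC). In this test 0 of the 46 members passed, 3 had an unadjusted p under 0.05 (MYC, DDX21 and NOP14), and 0.012% of all genes passed.

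BTZ was compared with CON within all 4 lines. Of 46 members, 44 had a negative difference (median -0.74, against -0.20 for all genes), 10 fell and 0 rose, where 6.59% of all genes fell. For 15 members (32.6%) every BTZ unit was below every CON unit in each of the 4 lines, which held for 14.0% of all genes. Of the B cell and mantle cell markers 3 of 9 fell (median -1.57), and mitochondrial shares were 4.11% to 67.6% under BTZ and 1.91% to 3.92% in CON; their part in the result was not tested.

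LYAR was at 86.9 CPM in CON and 21.9 CPM under BTZ in MINO-P, and at 99.96 and 45.5 CPM in MINO-VR. In JEKO-1 it was at 78.0 CPM in CON and at 30.4, 35.1 and 42.5 CPM under BTZ, and in Z138 at 48.1 and 66.9 CPM in CON and 13.6 CPM under BTZ. All BTZ libraries were below the CON libraries of their line. LYAR fell by 1.52 ± 0.26 (adjusted p 0.0034) and passed in all 19 alternatives.

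All 3 box H/ACA proteins fell: NHP2 by 1.35 ± 0.30 (adjusted p 0.0142), DKC1 by 1.24 ± 0.27 (adjusted p 0.0111) and GAR1 by 1.00 (adjusted p 0.0379). FBL of box C/D fell by 1.11 ± 0.32 (adjusted p 0.0447, or 0.0502 with a term for the Z138 set), and RRP1B, a nucleolar protein of 60S maturation, by 1.05 ± 0.30 (adjusted p 0.0417). The other called members were NOP14, GNL3, NCL and POLR1B. BOP1, which acts in 60S maturation with PES1 and WDR12, had the most negative difference, -2.07 ± 0.78, without passing (adjusted p 0.112), and was listed at 0 in JEKO-1 BTZ replicate 3 against 57.0 and 67.4 CPM in replicates 1 and 2.

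RRN3, which brings RNA polymerase I to its promoter, had the highest difference, 0.22 ± 0.26 (adjusted p 0.672). It was at 102 CPM in CON and 143 CPM under BTZ in MINO-P, at 98.4 and 114 CPM in MINO-VR, and at 93.3 and 101 CPM in CON and 90.0 CPM under BTZ in Z138. In JEKO-1 it was at 89.9 CPM in CON and at 189, 177 and 66.5 CPM under BTZ. It was higher in the MINO lines and the JEKO-1 replicates 1 and 2, and lower in Z138 and JEKO-1 replicate 3.

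MYC was at 598 CPM in CON and 366 CPM under BTZ in MINO-P, at 576 and 631 CPM in MINO-VR, and at 1277 and 988 CPM in CON and 151 CPM under BTZ in Z138. In JEKO-1 it was at 619 CPM in CON and at 1008, 1030 and 171 CPM under BTZ, so its replicates fell on both sides of CON. The mean difference was -1.01 ± 0.62 (adjusted p 0.351), and MYC passed in none of 19 alternatives. ODC1 had a difference of -0.88 ± 0.28 (adjusted p 0.0647).

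By line, 38 members were lower under BTZ in MINO-P (median -0.59), 21 in MINO-VR (median 0.03), 41 in JEKO-1 (median -1.16) and 45 in Z138 (median -1.15). In JEKO-1 the median was -0.68 for replicates 1 and 2 and -1.69 for replicate 3, and the most negative difference, that of BOP1 (-4.15), rests on replicate 3. A different effect of BTZ in JEKO-1 and Z138 was found for 0 members (2 at an unadjusted p under 0.05) and for 0.012% of all genes, with 2.32 ± 1.61 for MYC (adjusted p 0.557) and 0.29 ± 0.74 for ODC1 (adjusted p 0.9). Without JEKO-1 BTZ replicates 1 and 2, this test called 15 members and 27.7% of all genes.

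The 10 calls of BTZ against CON became 1 without JEKO-1 CON (4.73% of all genes called in either direction) and 2 without Z138 BTZ (3.19%). They became 3 without MINO-P CON (3.53%), MINO-P BTZ (3.55%) or Z138 CON replicate 2 (5.65%), and 6 without Z138 CON replicate 1 (5.96%). With the Z138 pairs averaged 3 were called, LYAR, DKC1 and GNL3 (1.95% of all genes in either direction). They became 25 without JEKO-1 BTZ replicates 1 and 2 (24.3% of all genes called in either direction) and 18 without JEKO-1 BTZ replicate 3 (20.0%).

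**Figure D4:**
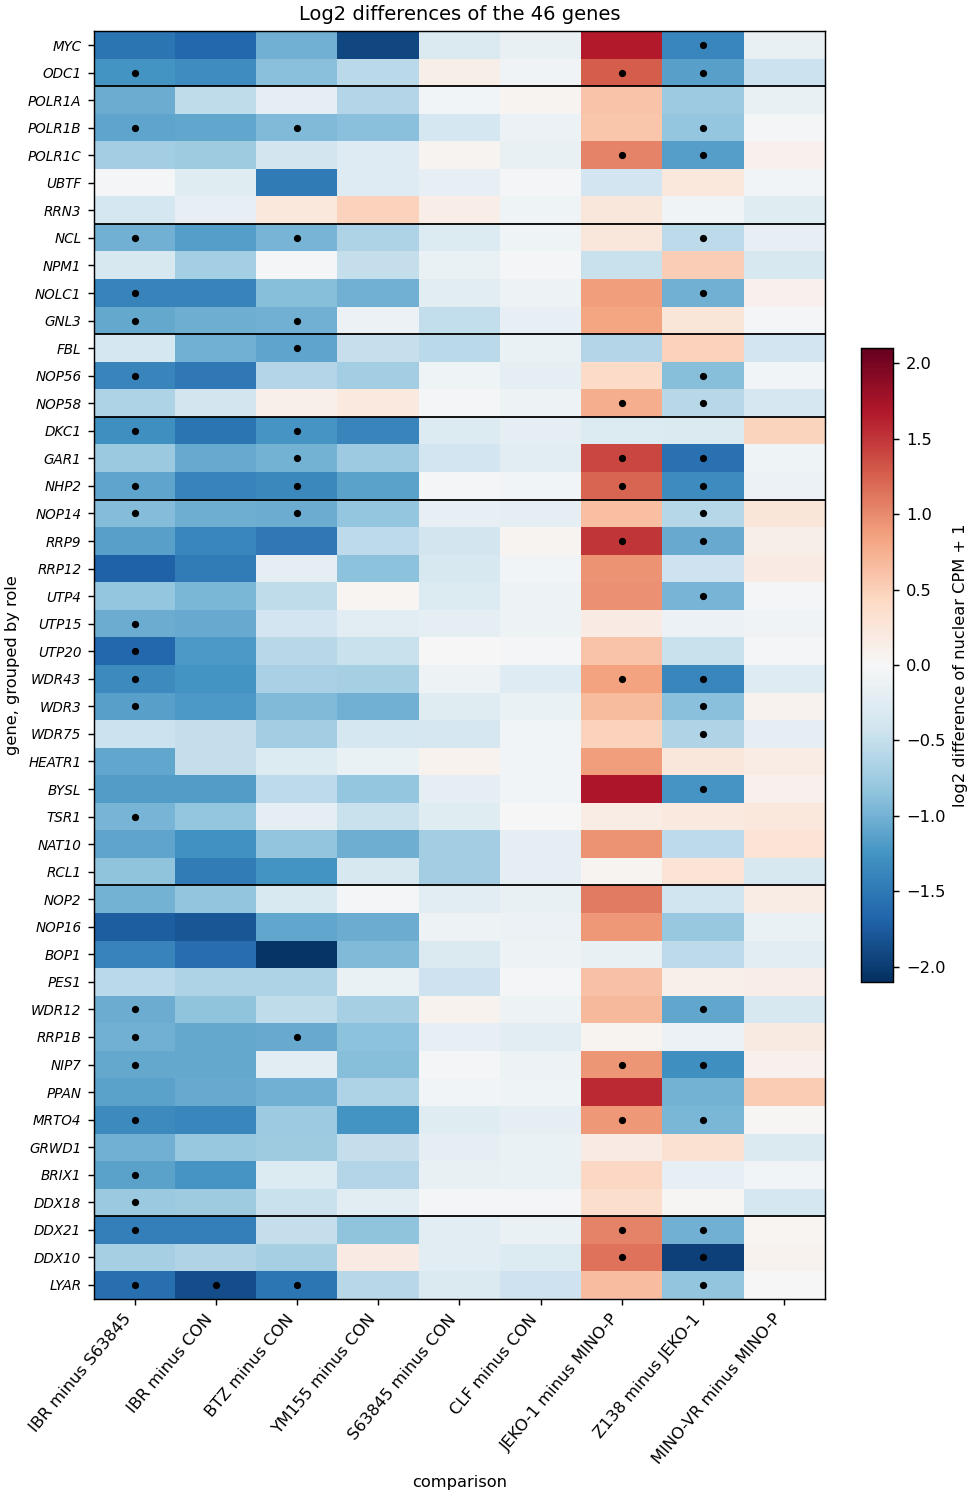
Log2 differences (colour) of the 46 genes (rows, by role) in 9 comparisons (columns); a dot marks an adjusted p under 0.05. All 46 genes are below 0 in both IBR columns against S63845 and CON, with 22 dots and 1 dot, and the BTZ column has 10.

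YM155 was compared with CON in JEKO-1 and Z138, with 1 YM155 library each, the Z138 one having a name that ends in a capital A. Of 46 members 42 had a negative difference (median -0.62, against -0.04 for all genes), 0 passed in limma and 9 had an unadjusted p under 0.05. Over all genes, 0.0% passed. With every library as its own unit 1 member and 1.01% of all genes passed. MYC was at 57.1 CPM under YM155 in Z138, against 1277 and 988 CPM in CON, and at 845 CPM in JEKO-1, against 619 CPM. It was thus lower in Z138 and higher in JEKO-1, as under IBR, and the mean difference was -1.91 ± 0.87 (adjusted p 0.429), or 0.45 without the Z138 YM155 library. The median over the members was -0.94 in Z138 and -0.15 in JEKO-1, and ODC1 had a difference of -0.57 ± 0.40 (adjusted p 0.681).

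RRN3 again had the highest difference, 0.49 ± 0.36 (adjusted p 0.71). It was at 135 CPM under YM155 in Z138, against 93.3 and 101 CPM in CON, and at 128 CPM in JEKO-1, against 89.9 CPM. Both YM155 libraries were above the CON libraries of their line.

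S63845 and CLF gave small differences from CON. Under S63845 in JEKO-1 and Z138, 41 members had a negative difference (median -0.21, against 0.00 for all genes), 0 passed in limma under any setting run, 0 had an unadjusted p under 0.05, and 0.012% of all genes passed. The count of negative differences ranged from 25 (median -0.04) in an additive model to 45 (median -0.35) on the deposited scale, and was 29 (median -0.08) without Z138 CON replicate 2 and 43 (median -0.35) without Z138 CON replicate 1. MYC was at 646 CPM against 619 CPM in JEKO-1 and at 793 and 642 CPM against 1277 and 988 CPM in Z138 (-0.30 ± 0.81, adjusted p 1.0). ODC1 had a difference of 0.12 ± 0.37 (adjusted p 1.0), which was -0.02 on the deposited scale.

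Under CLF in the 4 lines, 44 members had a negative difference (median -0.11, against -0.02 for all genes), 0 passed in limma under any setting run, 0 had an unadjusted p under 0.05, and 0.0% of all genes passed. LYAR had the most negative difference (-0.43 ± 0.25, adjusted p 1.0), MYC had -0.16 ± 0.59 and ODC1 -0.07 ± 0.27. Missing the threshold with errors of this size does not show that the levels were equal.

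Adding CLF to IBR gave no called member. In the 4 lines, 19 of 46 were lower under IBR_CLF than under IBR (median 0.07), and 34 were lower on the deposited scale. In limma 3 had an unadjusted p under 0.05, and 0.0903% of all genes passed. With every library as its own unit 1 member and 0.628% of all genes passed. MYC was at 92.0 and 101 CPM in MINO-P, 93.3 and 84.9 CPM in MINO-VR, 727 and 688 CPM in JEKO-1 and 473 and 47.7 CPM in Z138. The Z138 replicates lay on both sides of the IBR libraries (72.1 and 94.5 CPM), and the mean difference was -0.31 ± 0.55 (adjusted p 0.998). ODC1 was at 1400 and 1424 CPM in JEKO-1 IBR_CLF, the libraries with mitochondrial shares of 60.7% and 59.1%, against 477, 461 and 657 CPM under IBR, and its mean difference was 0.65 ± 0.25 (adjusted p 0.879).

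Adding CLF to BTZ in both MINO lines and JEKO-1 gave 0 called members in limma, 0 at an unadjusted p under 0.05, and 0.0181% of all genes. All 46 members were lower in MINO-VR (median -0.70), where MYC was at 113 CPM against 631 CPM, and 15 were lower in JEKO-1 (median 0.50). MYC had a mean difference of -0.73 ± 0.73 and ODC1 of -0.46 ± 0.33 (adjusted p 1.0 for both). Without JEKO-1 BTZ replicates 1 and 2, 7 members passed, 6 of them higher, where 12.1% of all genes passed in either direction.

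Adding BTZ to YM155 was measured in the MINO lines with 1 library per group. MYC was at 253 CPM under YM155 and 45.9 CPM under BTZ_YM155 in MINO-P, and at 285 and 47.2 CPM in MINO-VR. Both lines moved alike, with a difference of -2.50 ± 0.93 that did not pass (adjusted p 0.278). Of the members, 38 were lower (median -0.67, against -0.19 for all genes), 12 had an unadjusted p under 0.05 and 0 passed in limma under any setting run, where 0.247% of all genes did. ODC1 had a difference of -0.57 ± 0.43 (adjusted p 0.644).

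Averaged over the treatments shared by the lines compared, drug-treated libraries included, most of these genes were higher in JEKO-1 than in Z138 or MINO-P. Over 7 shared treatments, 23 members fell in Z138 relative to JEKO-1 and 0 rose, with a median of -0.61 against -0.02 for all genes. By this rule 23.9% of all genes fell. Called in either direction were 23 of 46 members and 7439 of 16615 genes, so being called was common among all genes. On the deposited scale, which moved the median of all genes to 0.22, 13 fell and 3 rose. On that scale 46.6% of all genes were called in either direction. With the Z138 pairs averaged 15 fell, where 30.6% of all genes were called in either direction. DDX10, a nucleolar helicase, was lower, with a difference of -1.97 ± 0.19 (adjusted p 8.62e-07), GAR1 of -1.57 (adjusted p 7.88e-06), WDR43, of the small subunit processome, of -1.37 (adjusted p 4.05e-05), MYC of -1.37 ± 0.42 (adjusted p 0.0155) and NHP2 of -1.32 (adjusted p 0.000108). MYC did not pass with a term for the Z138 set (-0.95, adjusted p 0.15), with the Z138 pairs averaged (adjusted p 0.0514), without libraries over 50% mitochondrial share (-1.01) or without the YM155 library of Z138 or of JEKO-1 (-0.95). In CON, however, MYC was higher in Z138 (1277 and 988 CPM) than in JEKO-1 (619 CPM). Under IBR it was lower in Z138 (72.1 and 94.5 CPM against 891, 862 and 830.4 CPM). The mean difference of MYC therefore does not describe untreated cells. ODC1 also fell, with -1.14 ± 0.19 (adjusted p 0.000206). DDX10 was at 45.7 to 98.6 CPM in the 15 JEKO-1 libraries and at 9.51 to 35.3 CPM in the 13 Z138 libraries, with no overlap under any treatment.

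Against MINO-P, over 4 treatments of one library series (IBR, IBR_CLF, YM155 and S63845), 41 members were higher in JEKO-1, 11 rose and 0 fell. The median was 0.67 against 0.04 for all genes, and 11.2% of all genes rose by this rule. No CON library enters this comparison, so it does not describe untreated cells. The largest called were RRP9, of the U3 particle (1.498 ± 0.447, adjusted p 0.0281), GAR1 (1.41 ± 0.27, adjusted p 0.00148), ODC1 (1.27 ± 0.27, adjusted p 0.0038), NHP2 (1.23 ± 0.29, adjusted p 0.00796) and DDX10 (1.14 ± 0.27, adjusted p 0.00807). RRP9 was at 25.3, 38.6 and 46.8 CPM in JEKO-1 IBR and 11.8, 16.6 and 11.3 CPM in MINO-P IBR, and at 57.3 CPM under S63845 against 31.9 and 22.2 CPM. BYSL, of 40S maturation, had the highest difference of all members (1.70 ± 0.67, adjusted p 0.0906), followed by MYC (1.67 ± 0.59, adjusted p 0.0634). Neither passed. In CON, whose libraries are from different series in these lines, MYC was at 598 CPM in MINO-P and 619 CPM in JEKO-1.

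The 11 calls became 4 on the deposited scale (3 higher and 1 lower), 5 with the Z138 pairs averaged, 4 without MINO-P IBR_CLF or JEKO-1 IBR_CLF, 6 without JEKO-1 S63845 and 7 without MINO-P S63845 replicate 2 or JEKO-1 IBR replicate 3. The 11 calls became 27 without JEKO-1 BTZ replicate 3 or without JEKO-1 BTZ replicates 1 and 2, 26 of them higher. There, 30.8% of all genes were called in either direction in each case.

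Between MINO-VR and MINO-P, over 9 treatments, 26 members were lower in MINO-VR, the median was -0.05, 0 passed in limma, 3 had an unadjusted p under 0.05 and 2.99% of all genes passed. Leaving out JEKO-1 BTZ replicate 3 or replicates 1 and 2 gave 1 member (8.0% and 7.99% of all genes in either direction). Taking every library as its own unit also gave 1 (6.27%). MYC had a difference of -0.15 ± 0.42 (adjusted p 0.989) and ODC1 of -0.46 ± 0.19 (adjusted p 0.283).

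Other genes of the pathway gave a background for the members. Over all genes tested, 3.32% fell under IBR against S63845 and 6.59% fell under BTZ. Of 66 further ribosome biogenesis factors, 15 fell under IBR against S63845 (median -0.50), led by RRP15 (-1.90, adjusted p 0.0147), NOL6 (-1.69, adjusted p 0.0297) and RRS1 (-1.51, adjusted p 0.00847). Of the same 66, 3 fell under BTZ (PWP2, RRS1 and RIOK1), a smaller share than over all genes. Of 11 further RNA polymerase I genes, 1 fell in each comparison, POLR1G, a polymerase subunit, with -2.44 ± 0.38 under IBR against S63845 (adjusted p 0.00845) and -2.02 ± 0.45 under BTZ (adjusted p 0.0134). Of 23 MYC targets outside the nucleolus, 8 fell under IBR against S63845, led by NME1, a nucleoside diphosphate kinase (-2.07, adjusted p 0.00547), TFRC, the transferrin receptor (-1.86, adjusted p 0.0167), and LDHA, lactate dehydrogenase (-1.80, adjusted p 0.00916). Also 8 fell under BTZ, led by TERT (-3.26, adjusted p 0.00271), CAD, of pyrimidine synthesis (-2.12, adjusted p 0.00874), and LDHA (-1.63, adjusted p 0.0115).

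Of 11 partners and antagonists of MYC, MXD1, a competitor for MAX, rose under BTZ by 1.84 ± 0.35 (adjusted p 0.00656), MXD3 fell by 2.29 ± 0.52 (adjusted p 0.0141), and MYCN fell under IBR against S63845 by 1.11 ± 0.27 (adjusted p 0.0311). MYCN was higher in Z138 than in JEKO-1 (1.70, adjusted p 1.23e-05) lower in JEKO-1 than in MINO-P (-1.84, adjusted p 0.000457) and lower in MINO-VR than in MINO-P (-2.14, adjusted p 4.06e-05). PWP2, of the processome, had the widest line difference of the further factors: -3.43 in Z138 relative to JEKO-1 (adjusted p 4.3e-08) and 3.61 in JEKO-1 relative to MINO-P (adjusted p 3.81e-06).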

How the data were processed

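RNA was sequenced from 4 cell lines in 56 libraries. The authors deposited log2(CPM + 1) values per gene for every library, the unit being settled from the values, whose sums per library after back-transformation are 999984 to 1000009 CPM. Partek and hg38 are named per the submitters' processing notes; the aligner and counting settings are not given in the sources used here. Values were returned to CPM, 15 mitochondrially encoded genes were left out, and the rest rescaled to CPM and taken as log2(CPM + 1), on which fold changes of low genes are understated.

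The 8 pairs of libraries whose labels differ only by a final lower-case a were averaged (SD of their log2 differences 0.199 to 0.668), giving 48 units in 37 groups, of which 26 have 1 unit; the spread rests on 11 residual degrees of freedom, and a group of 1 unit is assumed to vary like the others. The 5 Z138 pairs whose names differ by a final capital A stayed separate units (SD 0.547 to 0.968) and give 5 of these degrees of freedom; the labels do not say what either letter means. The differences within these pairs correlated between treatments (Pearson r 0.236 to 0.619 across genes, 10 comparisons), so the capital A was taken to pair Z138 libraries. limma 3.58.1 in R 4.3.3 was fitted with a mean per group and a trended variance to 16615 genes (at least 1 CPM in 2 units). Differences are means of within-line (or within-treatment) differences, and a call is a Benjamini-Hochberg adjusted p under 0.05 over all genes tested. Whole reads were recovered for a median of 83.2% of low values (within 0.02 reads), too few for a count test. Alternatives were the deposited scale, size factors, every library as its own unit, no filter, a pseudocount of 0.25, an additive model and leaving out each unit; leaving out libraries over 50% mitochondrial share, and the JEKO-1 BTZ units from every comparison, were chosen after seeing the data, as were a term for the Z138 libraries with a capital A (a replicate block) and averaging the Z138 pairs. The fit was tested on simulated data.

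MYC and ODC1 are named in every comparison, with up to 5 called members in each direction and up to 3 called genes of each other list; other members are named to show their role. The members and lists were chosen with earlier results of these data known.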

Additional observations from a re-analysis of the deposited data

Results flagged for a closer look

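MYC under IBR differed in direction between 2 lines: all 3 JEKO-1 IBR libraries were above JEKO-1 CON and both Z138 IBR libraries were below both Z138 CON libraries. The difference between the lines was 4.21 (log2), with an adjusted p of 1.0 and an unadjusted p of 0.0118 (limma), so it did not pass over all genes. It ranged from 4.02 to 4.41 over 16 alternatives, with adjusted p from 0.348 to 1.0.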

How the results depend on the processing

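The sign of the members' median held for BTZ and IBR against CON and for IBR against S63845 under every alternative run; the number called did not. Percentages in brackets are the shares of all genes called in either direction. For BTZ the number called was 16 on the deposited scale (13.5%), 4 with size factors (8.24%) and 17 with every library its own unit (13.6%). It was 21 in the additive model (17.1%) and 25 without libraries over 50% mitochondrial share (24.5%). Leaving out units gave 1 to 25 (3.19% to 24.3%), with 18 without JEKO-1 BTZ replicate 3 (20.0%). For IBR against CON it was 0 on the deposited scale (0.117%) and with a pseudocount of 0.25 (0.0%), and 2 without a filter (0.199%). It was 19 with every library its own unit (3.57%) and without libraries over 50% mitochondrial share (4.35%). The additive model gave 25 (8.16%), and leaving out units gave 0 to 19. For IBR against S63845 it was 34 with every library its own unit (12.5%) and 39 without libraries over 50% mitochondrial share (15.4%). Leaving out units gave 8 to 39, with 11 without replicates 1 and 2 of IBR in MINO-P (1.79%), MINO-VR (1.54%) or JEKO-1 (2.17%). For JEKO-1 against MINO-P it was 4 on the deposited scale, 24 with every library its own unit, and 4 to 27 leaving out units (6 without JEKO-1 S63845). With every library its own unit 1 member was called for YM155, for IBR_CLF against IBR and for MINO-VR against MINO-P, and 1 for the last without libraries over 50% mitochondrial share; leaving out units gave 0 to 1 there, 0 to 7 for BTZ_CLF against BTZ and 0 to 15 for the BTZ effect, which was also 15 without libraries over 50% mitochondrial share. Z138 against JEKO-1 gave 20 to 31 leaving out units.

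Small differences changed sign. ODC1 under CLF was 0.01 in the additive model, 0.003 without MINO-P CON or CLF and 0.034 without MINO-VR CON or CLF. ODC1 under S63845 was -0.016 on the deposited scale and -0.003 in the additive model. MYC under YM155 was 0.448 without Z138 YM155, MYC under IBR_CLF was 0.067 without MINO-P IBR_CLF and 0.096 without Z138 IBR_CLF replicate 2, and MYC under BTZ_CLF was 0.132 without MINO-VR BTZ or BTZ_CLF. ODC1 in the IBR effect was -0.048 without JEKO-1 IBR replicate 3, and in the BTZ effect -0.56 on the deposited scale and -0.475 without JEKO-1 BTZ replicate 3. The other ends of these ranges were -0.085 for ODC1 under CLF without Z138 CLF replicate 2, -4.274 for MYC under YM155 without JEKO-1 CON, -0.725 for MYC under IBR_CLF without Z138 IBR_CLF replicate 1, -1.513 for MYC under BTZ_CLF without JEKO-1 BTZ_CLF (-1.164 without JEKO-1 BTZ replicate 3), 0.436 for ODC1 in the IBR effect without JEKO-1 IBR replicates 1 and 2 (0.359 without Z138 IBR replicate 2), and 1.054 for ODC1 in the BTZ effect without JEKO-1 BTZ replicates 1 and 2 (0.356 without Z138 CON replicate 1). The cause was not tested. The replicate block for the Z138 set gave 9 calls for BTZ, 1 for IBR against CON, 22 for IBR against S63845, 22 for Z138 against JEKO-1 and 12 for JEKO-1 against MINO-P; it ended the call of FBL under BTZ and of MYC, BYSL, NCL and UTP4 for Z138 against JEKO-1, and no other call of a member, and it added 3 members for Z138 against JEKO-1 and 1 for JEKO-1 against MINO-P. Averaging the Z138 pairs gave 3, 0, 0, 15 and 5 in the same order. Of 37 groups 26 have 1 unit, so the spread comes from the other 11.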

Other observations

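The combinations IBR_YM155, IBR_S63845 and BTZ_S63845 have no comparison here. MYC was at 147 CPM in MINO-P IBR_YM155, 102 CPM in Z138 IBR_YM155, 165 CPM in MINO-P IBR_S63845 and 72.0 CPM in MINO-VR BTZ_S63845. The median centred level of the 44 nucleolar genes in these libraries was -0.18, -0.61, -0.30 and -0.37 (log2). LYAR was at 30.5, 42.1, 19.0 and 15.4 CPM in the same order.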
